A study of Mus musculus with 240 samples.

Results

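Haemoglobin is the oxygen carrier of red blood cells, and 5 genes of its production were followed through a mouse brain dataset of laser-captured oligodendrocyte precursor cells (OPCs), the dividing glial cells that give rise to myelinating oligodendrocytes. The 5 were chosen by symbol from the 34623 genes of the deposited table: Hbb-bs and Hbb-bt, the adult beta-globin genes, Hba-a1 and Hba-a2, the adult alpha-globin genes, and Alas2, the erythroid form of the first enzyme of haem synthesis. Their level and their spread between libraries were already known when they were proposed, so levels within groups and spread are given as descriptions with no test. The contrasts between groups were fitted over all genes of the table, and with earlier results known they are not independent evidence about these 5.

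The dataset holds 240 RNA-seq libraries. The 48 bulk libraries come from 37 animals, either Trp53-/- Nf1-/- (called CKO, as in the sample titles) or wild-type (WT), at 12, 90 and 150 days after the start of tamoxifen (dpi). There were 7 CKO and 5 WT animals at 12 dpi, 7 CKO and 5 WT at 90 dpi, and 7 CKO animals with tumours and 6 WT at 150 dpi. The 192 small libraries are all Trp53-/- Nf1-/-: at each of 12 and 90 dpi there were 56 libraries of 10 cells each and 40 pool-and-split controls, in which, by that label, captured material was pooled and then divided. Every group carried the tamoxifen time label, WT included, and bulk titles call the captured material tdTpositive. The promoter that drives recombination is not given in the sources used here. Titles number the small libraries by sex and by 1 or 2, which makes 4 sets per kind and time, of 14 10-cell or 10 pool-and-split libraries. Nothing in the labels says whether a set is an animal, so p-values over sets measure the spread between these sets only.

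Bulk and small libraries differed in more than cell number. Bulk material was total RNA from 10 µm sections amplified linearly with T7 polymerase, and small libraries were polyA RNA from 8 µm sections amplified by PCR. Their values are given side by side, and chemistry and capture cannot be told apart as sources of a difference between them.

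An adult haemoglobin molecule joins alpha-globin and beta-globin chains, each holding a haem group. The globin genes sit in an alpha cluster and a beta cluster, and are transcribed at very high rates in red cell precursors, where Alas2 sets the pace of haem synthesis. Mouse red blood cells have no nucleus when mature, and young ones still carry globin RNA. Brain capillaries are full of such cells, and low globin transcription has also been described in some neurons and glia.

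The 2 alpha genes, and likewise the 2 beta genes, are near-identical copies, which limits what reads can say about each of them. Hbb-bs (ENSMUSG00000052305) lies at chr7:103826534-103828096 and Hbb-bt (ENSMUSG00000073940) at chr7:103812524-103813996, both on the minus strand. Hba-a1 (ENSMUSG00000069919) lies at chr11:32283511-32284465 and Hba-a2 (ENSMUSG00000069917) at chr11:32296489-32297298, both on the plus strand. Alas2 (ENSMUSG00000025270) spans chrX:150547375-150570638 on the plus strand. All positions are GRCm38. These gene spans are those of the deposited table, whose annotation is not given, and the coding stretches below use GENCODE M21 gene models. The stretches below are shown because they hold the single coding difference within each pair. Each lies in exon 3 of 3, on the coding strand, and the capital letter marks the differing base. The beta stretches run over coding bases 381 to 441, at chr7:103826668-103826728 for Hbb-bs and chr7:103812659-103812719 for Hbb-bt. The alpha stretches run over coding bases 351 to 411, at chr11:32284313-32284373 for Hba-a1 and chr11:32297130-32297190 for Hba-a2.
Hbb-bs: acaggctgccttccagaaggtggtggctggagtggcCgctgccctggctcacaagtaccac
Hbb-bt: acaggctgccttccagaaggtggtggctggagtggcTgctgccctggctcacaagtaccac
Hba-a1: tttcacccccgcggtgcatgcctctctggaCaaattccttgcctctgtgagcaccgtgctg
Hba-a2: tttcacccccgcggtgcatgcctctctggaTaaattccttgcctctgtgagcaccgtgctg
Counted from 1 at the first coding base, with the first gene of each pair given first, the differences are C417T for Hbb-bs against Hbb-bt and C381T for Hba-a1 against Hba-a2. The beta pair otherwise shares its 441 coding bases, with an identical run of 416, and the alpha pair its 426, with an identical run of 380. Over whole transcripts, the share of 50-base windows also found in the partner was 65.8% for Hbb-bs, 58.3% for Hbb-bt, 67.5% for Hba-a1 and 86.9% for Hba-a2. The submitters' processing notes name RSEM, which divides reads that fit several transcripts by estimate. The split within each pair is therefore uncertain, and sums over a pair are less so. Alpha and beta are easily told apart, since Hbb-bs and Hba-a1 matched at 57.5% of aligned coding columns.

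The stretches just before the RefSeq starts of the alpha genes are close copies too. Of 253 aligned columns upstream of those starts of Hba-a1 and Hba-a2, 247 were identical and the rest were gaps. These starts differ from those of the gene spans given above. The last 120 bases before that of Hba-a1, chr11:32283552-32283671, lie inside its span. The Hba-a2 stretch at chr11:32296372-32296491 (plus strand, RefSeq on GRCm38.p6) is shown because its textbook globin promoter motifs can be read in it, with, in that order, the CCAAT box, the CACCC box and the ATATAA box in capitals.
Hba-a2: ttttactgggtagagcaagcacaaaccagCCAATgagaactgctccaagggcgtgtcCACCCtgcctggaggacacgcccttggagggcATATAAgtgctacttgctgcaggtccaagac
In the 250 bases before the RefSeq start, searched on both strands, the 4 globin genes each held the CACCC box, the CCAAT box, the ATATAA box and the GATAA motif. Alas2 held CACCC and also GATAA but neither of the others. None of these motifs contains another. Of 32851 RefSeq promoters of that length, 52.0% held CACCC, 33.8% held CCAAT, 9.1% held ATATAA and 22.6% held GATAA. These are letter matches only.

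Library totals, counted over genes and without spike-ins, were 93694 to 23199230 in bulk libraries (median 9999625) and 1639385 to 6489275 in small ones (median 4127194). The captured material carried OPC transcripts: Pdgfra, the defining OPC receptor, had counts in 48 of 48 bulk libraries. In small libraries it was found in 36 of 56 and 49 of 56 10-cell libraries at 12 and 90 dpi, and in 26 of 40 and 34 of 40 pools, while the OPC transcription factor Olig1 was found in at least 54 of 56 and in 40 of 40. Neuron and astrocyte markers were high as well, with median summed levels in CPM (counts per 1000000 gene counts of the library) of 7327 for 9 neuron markers and 3453 for 8 astrocyte markers over bulk animals, beside 3019 for 10 OPC markers. The median OPC marker sum was 579 and 696 CPM in 10-cell libraries at 12 and 90 dpi, and 807 and 949 in pools. In the same order, 8 pericyte markers stood at 1989, 1410, 1894 and 1562 CPM, beside 379 over bulk animals. The 10 endothelial markers stood at 589.7, 518, 877 and 566 CPM, beside 268 over bulk animals. Neuron markers stood at 2950, 2473, 2755 and 1846 CPM, and astrocyte markers at 1914, 3140, 2448 and 2772. Nf1 was at 179.7 to 214 CPM in CKO and 268 to 347 in WT animals at 12 dpi, and at 142 to 258 and 276 to 345 at 90 dpi, with no overlap, but tumours (127 to 283) and WT (222 to 374) overlapped at 150 dpi, as Trp53 ranges did at every time. The gene-level count does not say which exons were removed. One WT library at 90 dpi, WT_21167, held 93694 counts and stands far below the rest in depth.

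Globin transcripts were abundant in small libraries of 10 captured cells and nearly absent from bulk. Over the 4 globin genes together, the median was 1968 CPM in 10-cell libraries at 12 dpi and 135 CPM at 90 dpi, against 7917 and 4312 CPM in the pools of those times. Over the 37 bulk animals the median was 0.438 CPM, and all their globin counts summed to 1450. Of the 192 small libraries, 170 had a globin count, as did 25 of 37 bulk animals. Since bulk libraries also mix many cells, fewer red cells and less globin RNA per cell cannot be told apart in them.

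Among the beta genes, Hbb-bs was the higher in each kind of library. In 10-cell libraries at 12 dpi it was detected in 45 of 56, with a lowest value of 0, a median of 615 and a highest of 61085 CPM (mean 3619 ± 9566 SD, n = 56). In the 12 dpi pools it was detected in 39 of 40, with a median of 3641 and a highest of 13128 CPM (mean 4346 ± 3619 SD, n = 40). At 90 dpi it was found in 34 of 56 10-cell libraries, with a median of 8.85 and a highest of 13567 CPM, and in 39 of 40 pools, with a median of 1709 and a highest of 7781 CPM. The 10-cell libraries thus ran from none to several percent of all counts, while nearly every pool carried the transcript.

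Hbb-bt followed at a lower level. Its median was 0.616 CPM in 10-cell libraries at 12 dpi (30 of 56 detected, highest 9633) and 384 CPM in pools (36 of 40, highest 2245). At 90 dpi its median was 0 in 10-cell libraries (19 of 56, highest 1208) and 11.9 CPM in pools (29 of 40, highest 1013). Per kilobase of transcript, the mean in 10-cell libraries at 12 dpi was 5763 CPM for Hbb-bs and 666 CPM for Hbb-bt, an order that held in every kind and time of small library.

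The alpha genes were closer in level to each other than the beta genes were. Hba-a1 was detected in 44 of 56 10-cell libraries at 12 dpi, with a median of 587 and a highest of 33478 CPM, and in 40 of 40 pools, with a median of 2505 and a highest of 10286 CPM. At 90 dpi its medians were 14.7 CPM in 10-cell libraries (37 of 56 detected) and 1290 CPM in pools (38 of 40). Hba-a2 had medians of 363 and 1379 CPM at 12 dpi, in 10-cell libraries and pools, and of 14.8 and 960.2 CPM at 90 dpi. Per kilobase, the means of Hba-a1 and Hba-a2 were 3589 and 3477 CPM in 10-cell libraries at 12 dpi, and 1179 and 1088 CPM at 90 dpi. Their medians per kilobase were 839.8 and 655 CPM at 12 dpi, and 21.0 and 26.7 CPM at 90 dpi. In set male 1 at 12 dpi, 1 library held 65.1% of the Hba-a1 and 69.5% of the Hba-a2 counts. Both genes were read in the same libraries, and their split within libraries is given below.

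Alas2 stood apart from the globins. It was detected in 5 of 56 10-cell libraries at each time and in 14 of 40 and 10 of 40 pools, so every median was 0, and its highest values were 104 and 87.6 CPM in 10-cell libraries and 799.9 and 64.0 CPM in pools. Set male 1 of the 12 dpi pools had 9 of its 10 libraries with an Alas2 count and a mean of 156 CPM, or 84.8 CPM without its highest library, and set means of the other pools at that time were 0, 1.23 and 1.80 CPM. Where Alas2 was seen, globins nearly always were too: of 34 small libraries with an Alas2 count, 33 had all 4 globins and none lacked all of them. Of all 192 small libraries, 113 had all 4 globins and 22 had none. Pools made up 24 of the 34, and all 80 pools had at least 1 globin, with or without Alas2.

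**Figure D1:**
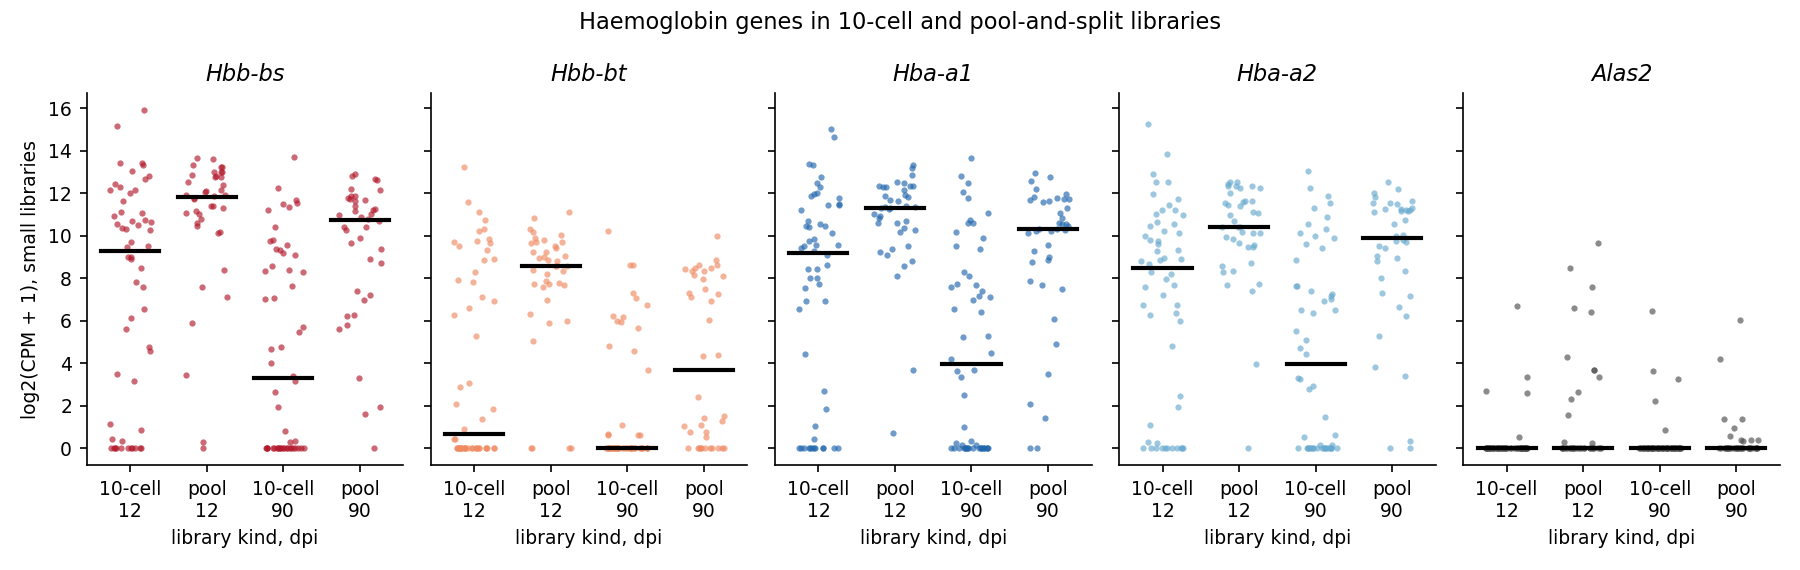
Each point is 1 small library, grouped by kind and time, with log2(CPM + 1) on the y axis and 1 panel per gene; horizontal lines are group medians. In 10-cell libraries points spread from 0 to 61085 CPM for Hbb-bs at 12 dpi, pools crowd higher up, and Alas2 is mostly at 0.

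The 4 globins often came and went together, but many 10-cell libraries held only some of them. In 10-cell libraries at 12 dpi, 30 of 56 had all 4 and 9 of 56 had none. At 90 dpi 18 of 56 had all 4 and 13 had none. Those with 1, 2 or 3 of the globins numbered 1, 5 and 11 at 12 dpi and 6, 8 and 11 at 90 dpi. Among pools, 36 of 40 and 29 of 40 had all 4, and each pool had at least 1. Over the 10-cell libraries of both times, Hba-a1 and Hba-a2 correlated at Pearson r = 0.988 and Spearman rho = 0.977 on log2(CPM + 1), Hbb-bs and Hba-a1 at 0.847 and 0.854, and Hbb-bs and Hbb-bt at 0.745 and 0.780. The alpha pair shares sequence, but Hbb-bs and Hba-a1 share little. Centred on the set medians, Hbb-bs and Hba-a1 still correlated at 0.792, and without the 2 libraries farthest from the median of Hbb-bs at 0.836. In the 80 pools, Hbb-bs and Hba-a1 stood at 0.811 and 0.824, and Hba-a1 and Hba-a2 at 0.969 and 0.934. Alas2 correlated with each globin at 0.279 to 0.313 in 10-cell libraries. Libraries share sets, depth and 2 time points, so these are descriptions.

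A few libraries held most of the globin RNA. The 3 highest held 56.6% of all globin counts of the 10-cell libraries at 12 dpi and 51.6% at 90 dpi, against 18.2% and 17.6% for the 3 highest pools. The top 10-cell library, of set male 1 at 12 dpi, had 13.7% of its counts in the 4 globins, at 61085 CPM for Hbb-bs, 3131 for Hbb-bt, 33478 for Hba-a1, 38813 for Hba-a2 and 104 for Alas2. The second, of set male 2, had 8.67% and no Alas2 count. At 90 dpi the highest had 3.63%, again in set male 2. Globins passed 10000 CPM in 11 of 56 and 4 of 56 10-cell libraries and in 15 of 40 and 6 of 40 pools at 12 and 90 dpi. So single 10-cell libraries reached the greatest values, and the pools more often reached a moderately high one.

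Spread between libraries was measured as the SD of log2(CPM + 1) around set means, from variances averaged over sets. At 12 dpi it was 4.07 in 10-cell libraries and 3.02 in pools for Hbb-bs, 4.14 and 2.62 for Hbb-bt, 3.94 and 2.32 for Hba-a1, and 3.75 and 2.23 for Hba-a2. Each of the 4 globins was more dispersed in 10-cell libraries, and the excess of 1.62 for Hba-a1 was passed by 12 of 7926 genes detected in at least 50% of libraries, where the median excess was 0.162. For Hba-a2, Hbb-bt and Hbb-bs, 22, 23 and 188 genes had a greater one. At 90 dpi the SDs were 4.54 and 2.99 for Hbb-bs, 4.16 and 3.27 for Hba-a1 and 4.23 and 3.38 for Hba-a2, again wider in 10-cell libraries, and the Hbb-bs excess of 1.55 was passed by 2 of 9704 genes. Hbb-bt went the other way at 90 dpi, at 2.97 and 3.90, with a median of 0 in its 10-cell libraries. Of all genes, 66.3% were more spread in 10-cell libraries at 12 dpi and 35.8% at 90 dpi, and of the 8 globin values 7 were. With the median absolute deviation in place of the SD the count was 6, since Hbb-bs at 90 dpi turned to -1.18. Without the highest library of each set, the excess of Hbb-bs at 12 dpi went from 1.04 to 0.499, and those of Hba-a1 and Hba-a2 at 90 dpi from 0.892 and 0.847 to 0.405 and 0.381. With a pseudocount of 5 the last 2 were 0.480 and 0.456, and Hbb-bs at 90 dpi was 0.872. With a smaller pseudocount these 3 were 1.62, 1.46 and 2.62. Hbb-bt at 90 dpi was -1.46 without the highest libraries and -4.87 by median absolute deviation, and Hbb-bs at 12 dpi was 1.62 by the latter. Alas2 fell short of 50% detection, with SDs of 1.10 and 1.89 at 12 dpi and 1.11 and 1.19 at 90 dpi. The globins were named for this measure, so it is not tested.

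**Figure D2:**
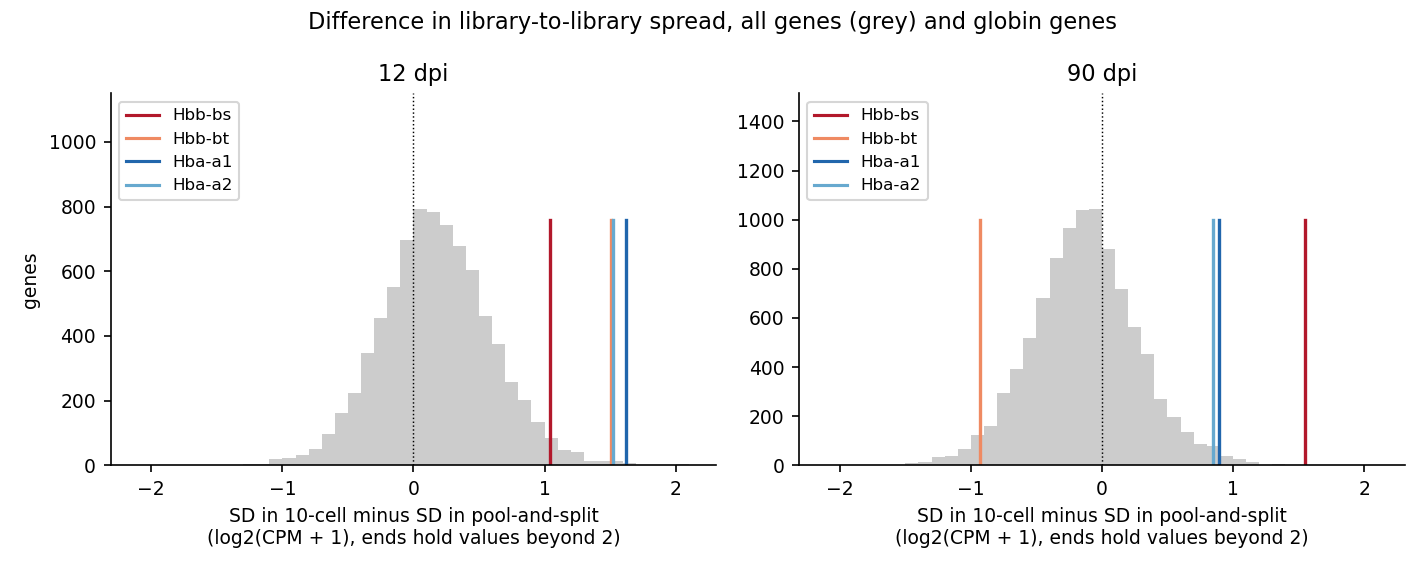
The histograms give, over all genes detected in at least 50% of libraries, the SD of log2(CPM + 1) in 10-cell libraries minus that in pools, at 12 dpi (7926 genes) and 90 dpi (9704 genes); vertical lines mark the globin genes. At 12 dpi all 4 lie in the right tail, and at 90 dpi Hbb-bt lies at -0.934 in the left tail.

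Sets differed widely in globin level. At 12 dpi the mean globin sum of 10-cell sets was 2060 CPM in female 1, 5213 in female 2, 15283 in male 1 and 11533 in male 2, and that of pools with the same sex and number was 13433, 3225, 16914 and 6607. At 90 dpi the 10-cell means were 554, 2365, 1955 and 3955 CPM in the same order, and the pool means 3667, 4042, 7405 and 7778. The 10-cell set was below the pool set of the same name in 6 of 8 cases, with ratios from 0.151 to 1.75. In set female 1 at 12 dpi, 7 of 14 10-cell libraries had a globin count, and 1 library at 28013 CPM held 96.8% of the set's globin counts. Both male sets at 12 dpi exceeded both female sets in 10-cell libraries, but with 2 sets per sex this is a list of values.

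**Figure D3:**
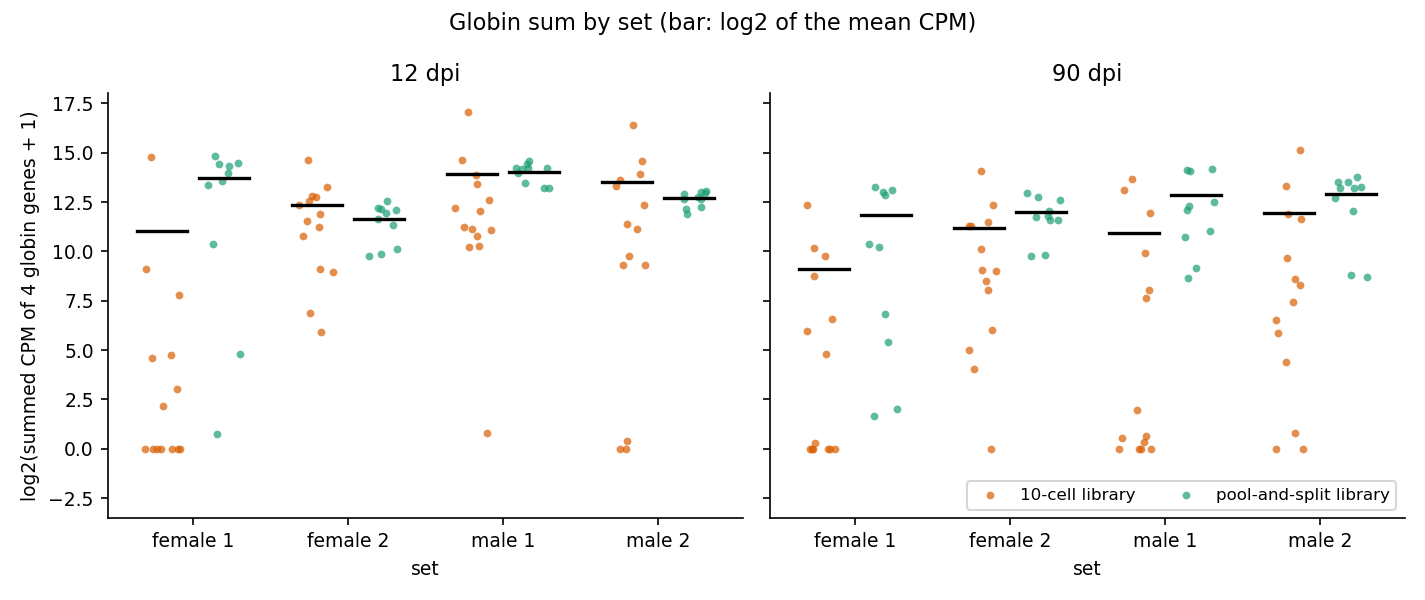
Points are single libraries and bars are the log2 of set means, with log2(CPM + 1) of the 4 globins summed on the y axis, at 12 dpi (left) and 90 dpi (right), with 10-cell and pool-and-split libraries of each set beside each other. Set female 1 has the lowest 10-cell means at both times (2060 and 554 CPM), while its pools average 13433 and 3667 CPM.

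The split between the alpha copies was narrow in most sets and shifted in 2 of them. In summed counts, Hba-a2 made up 36.4%, 36.3% and 36.5% of alpha-globin counts in 10-cell sets female 1, female 2 and male 2 at 12 dpi, and 36.0%, 36.6% and 36.6% in the pools of the same names. Set male 1 differed from those 3, at 52.0% and 50.5%. In its 10-cell libraries, 1 library held 65.1% of the Hba-a1 and 69.5% of the Hba-a2 counts. The median share over the 12 with at least 1000 alpha counts was 44.5%. At 90 dpi, female 2, male 1 and male 2 stood at 40.3%, 40.9% and 40.2% in 10-cell sets and at 40.4%, 40.8% and 41.0% in pools, and female 1 at 79.0% and 65.3%. In summed counts, both kinds of library showed the shift in the same 2 named sets. Within male 1 at 12 dpi the 10 pools with at least 1000 alpha counts ran from 44.4% to 55.3%, above the 38.5% that was the highest among the other pools at that time. Within female 1 at 90 dpi, 6 pools ran from 46.3% to 75.3%, above the highest of the other 90 dpi pools at 42.6%. All bulk counts together gave 40.4%. The 10-cell libraries were wider, from 33.0% to 71.5% in male 1 at 12 dpi (n = 12), overlapping other sets, and at 72.0% and 98.1% in the 2 of female 1 at 90 dpi. The shares rest on the 1 coding base shown above and on untranslated sequence, and reads outside those are divided by estimate.

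**Figure D4:**
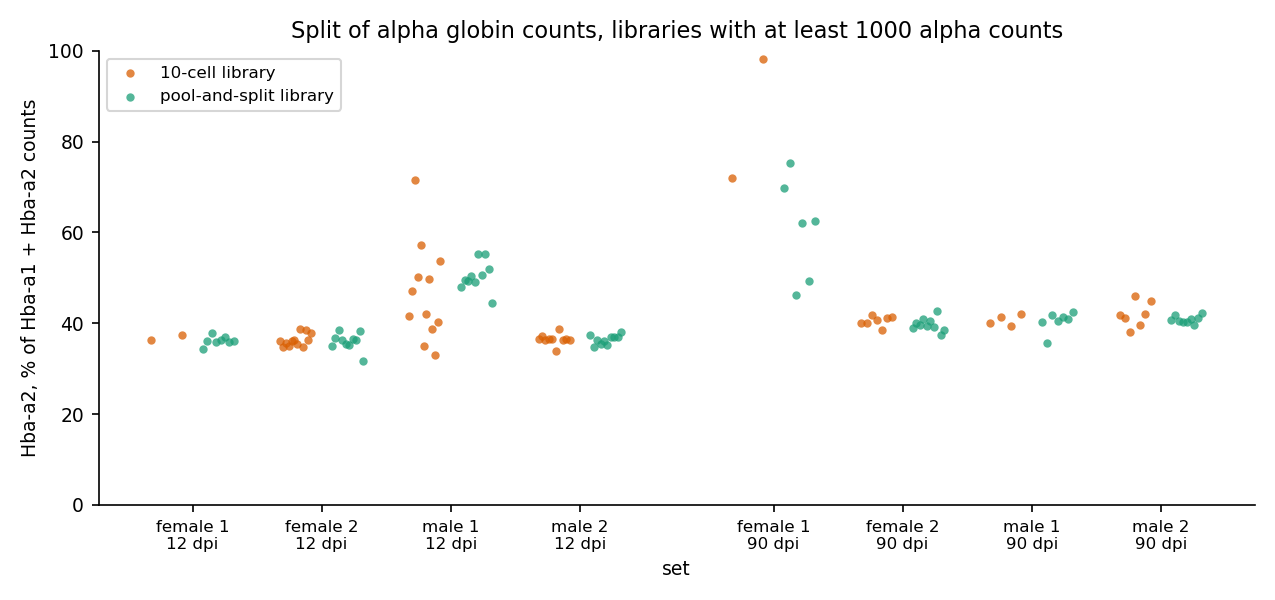
Each point is 1 small library with at least 1000 alpha-globin counts, with Hba-a2 as a percent of Hba-a1 plus Hba-a2 on the y axis, by set and kind. Pools of male 1 at 12 dpi (44.4% to 55.3%) and of female 1 at 90 dpi (46.3% to 75.3%) lie above the other pools of their time, while the 10-cell libraries of male 1 overlap other sets from 33.0% up.

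The beta split and the balance of alpha to beta were looser. Hbb-bt made up 4.23% to 18.5% of beta-globin counts over the sets at 12 dpi and 4.28% to 11.9% at 90 dpi, and 11.8% of all bulk beta counts. In single libraries with at least 1000 beta counts it ran from 0 to 72.3% in 10-cell libraries at 12 dpi (median 5.90%, n = 33) and from 0 to 83.7% in pools at 90 dpi (median 3.16%, n = 31). Alpha made up 45.2% to 71.0% of globin counts by set, and 19.9% of all bulk globin counts. In single libraries with at least 1000 globin counts, alpha ran from 8.20% to 100% in 10-cell libraries and from 22.7% to 98.9% in pools at 12 dpi, and from 0 to 100% and 0.410% to 95.5% at 90 dpi. The summed bulk counts thus held more beta than alpha, and single small libraries lay anywhere between.

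Between 12 and 90 dpi, no member passed the test in either kind of small library, although all fitted globin values were lower at 90 dpi. In the 8 10-cell sets, edgeR's quasi-likelihood test on summed counts, with sex as a covariate, gave Hbb-bs a log2 difference of -2.48 (SE 0.525, adjusted p = 0.537), Hbb-bt one of -3.34 (SE 0.829, adjusted p = 0.63), Hba-a1 -2.08 (SE 0.669, adjusted p = 0.633) and Hba-a2 -1.90 (SE 0.467, adjusted p = 0.63). The sets did not separate completely. The 10-cell Hbb-bs means of 792, 1949, 6764 and 4971 CPM at 12 dpi lay beside 262, 825, 524 and 1309 CPM at 90 dpi, and the 12 dpi value of female 1 lay within the 90 dpi range. The test called 0 of 5 members, and 0 of 14500 genes tested (percent called 0), with 4 members and 1034 genes at an unadjusted p below 0.05. DESeq2, run as an alternative, called 2 of the 5 (Hbb-bs with an adjusted p of 0.00954, Hbb-bt with 0.00715) and 706 genes in all. Taking each library as a replicate, which ignores that libraries share a set, edgeR called Hbb-bs (adjusted p = 0.0363) and 251 genes. The adjusted p of Hbb-bs ranged from 0.00954 to 0.892 over all alternatives.

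The pools had smaller fitted values, and the difference from the 10-cell sets was not tested. Their fitted log2 differences were -1.17 for Hbb-bs (SE 0.434, edgeR adjusted p = 0.604), -1.72 for Hbb-bt (SE 0.486, adjusted p = 0.583), -0.89 for Hba-a1 (SE 0.470, adjusted p = 0.677) and -0.60 for Hba-a2 (SE 0.454, adjusted p = 0.775). Here 0 of 5 members and 0 of 13408 genes were called by edgeR (percent called 0), 2 members and 1050 genes had an unadjusted p below 0.05, and DESeq2 called 0 members and 977 genes. Alas2 had fitted values of 0.33 in 10-cell sets (SE 2.85) and -1.76 in pools, and their sign turned when single sets were left out.

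In bulk, the globins were at the edge of detection, and their highest values belong to a few animals. At 12 dpi, Hbb-bs was 0 to 0.438 CPM in the 7 CKO animals, with a median of 0. In the 5 WT animals of that time it was 0, 0, 0.349, 0.658 and 9.39 CPM, the last in WT_22281. At 90 dpi the 7 CKO animals ran from 0 to 57.1 CPM with a median of 2.26, and 6 of 7 had Hbb-bs counts. After CKO_22149 the next highest were CKO_20647 at 12.1 CPM and CKO_22152 at 3.96 CPM. The 5 WT animals at 90 dpi had 0, 0, 0, 0 and 21.3 CPM, but that last value is 2 counts in the shallow library WT_21167. The 7 tumours ran from 0 to 11.1 CPM with a median of 1.53, and the 6 WT animals at 150 dpi from 0 to 0.783 with a median of 0.518. Ranges overlapped between genotypes at each time.

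The other globins followed in bulk at lower values. Hbb-bt reached 4.26 CPM at 90 dpi in CKO_22149, 2.15 CPM in tumours and 1.11 CPM in WT at 150 dpi, and was at 0 in all WT animals at 90 dpi, where 3 counts over the group would be 0.0476 CPM. Hba-a1 had a median of 1.11 and a highest value of 12.3 CPM in CKO at 90 dpi, and of 0.316 and 1.92 CPM in tumours. Hba-a2 was at 0 in the 7 CKO animals at 12 dpi, where 3 counts over the group would be 0.0291 CPM, reached 1.56 CPM in CKO at 90 dpi and was detected in 6 of 7 tumours at up to 1.52 CPM. Alas2 was different: it had counts in 36 of 37 animals, with group means from 1.23 ± 1.23 CPM (SD, n = 6, WT at 150 dpi) to 2.47 ± 1.49 CPM (SD, n = 7, tumours). Per kilobase, Alas2 stayed between 0.604 and 1.21 CPM across groups, while Hbb-bs reached 17.4 CPM in CKO at 90 dpi.

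**Figure D5:**
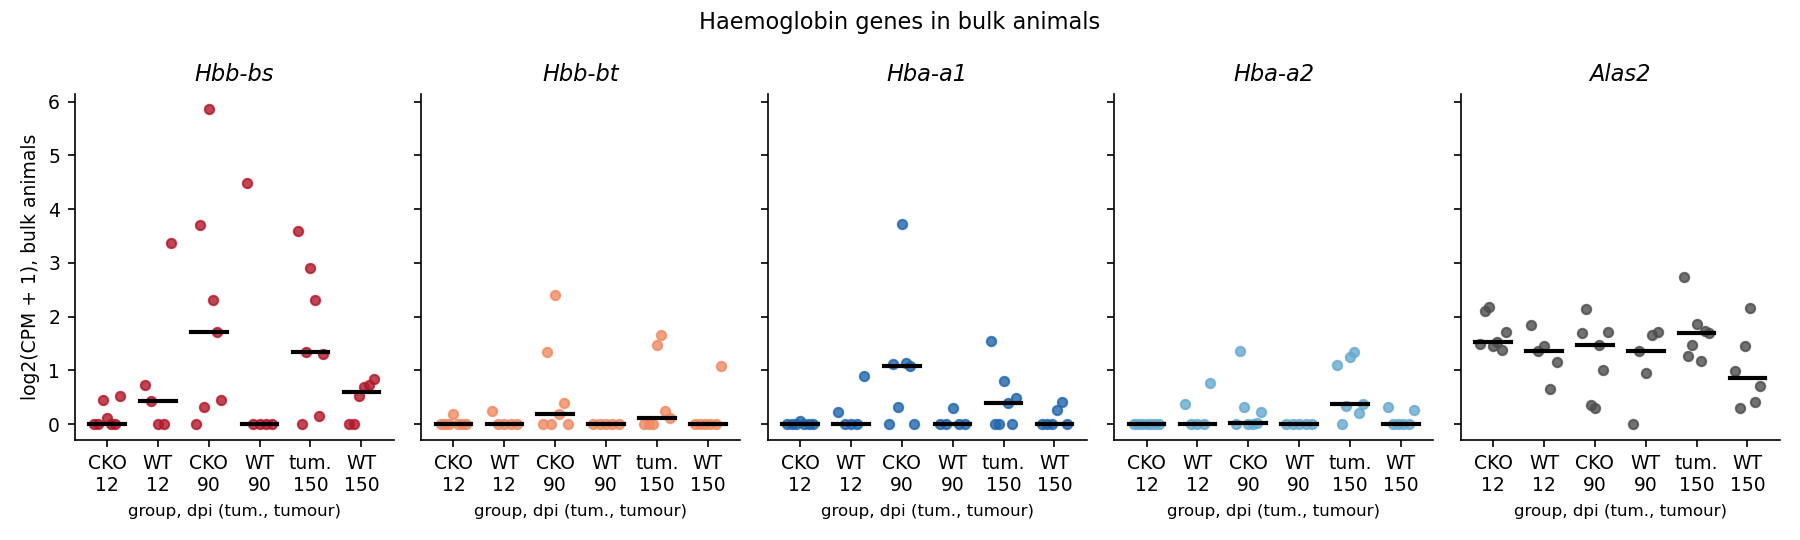
Each point is 1 of 37 bulk animals, with log2(CPM + 1) on the y axis, 1 panel per gene, and horizontal lines for group medians. The globin points of CKO animals at 90 dpi spread up to 57.1 CPM for Hbb-bs, and Alas2 has similar values in all 6 groups.

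Libraries of the same animal often disagreed about globins. Of 11 animals with 2 bulk libraries, 4 had globin counts in both, 5 in 1 only and 2 in neither. CKO_20647 had 313 globin counts in a library of 9670378 counts and 0 in its other library of 9468941. Tumor_16713 had 30.6 and 1.58 CPM, and Tumor_21354 had 67.0 counts and 0. In contrast, each library of these 11 animals held Alas2 counts.

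Across bulk contrasts edgeR called no haemoglobin gene. Hba-a2 did not pass the filter on low counts, so 4 of 5 members were tested there. Against WT at 12 dpi, CKO animals had 0 of 4 called (3 of 16349 genes, 0.0183%), 2 members at an unadjusted p below 0.05, both lower, and a Hbb-bs log2 difference of -3.93 (SE 1.47, adjusted p = 0.997). At 90 dpi 0 of 4 were called (0.0489% of genes), 3 had an unadjusted p below 0.05, all higher, and the fitted Hbb-bs value was 7.52 (SE 2.09, adjusted p = 0.536). Fitted values against WT at 90 dpi rest on groups with almost no counts. In summed counts, Hbb-bs had 595 counts in CKO and 2 in WT, a ratio of 169 after scaling by depth (exact 95% interval 46.7 to 1402), and Hbb-bt was at least 10.3-fold and Hba-a2 at least 6.84-fold higher in CKO, against a floor of 3 counts over the group. These intervals cover counting error only, and CKO_22149 and CKO_20647 alone gave 241 and 231 of the 595. Without CKO_20647, left out after its values were seen, the bounds were 5.71-fold for Hbb-bt and 1.44-fold for Hba-a2, and the Hbb-bs ratio was 125.

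From 12 to 90 dpi within CKO, 0 of 4 members were called (0% of 16349 genes; 696 genes at an unadjusted p below 0.05 and 4 called by DESeq2), although Hbb-bs and Hba-a1 were fitted 6.53 (SE 1.44) and 6.69 (SE 1.48) higher, each with an edgeR adjusted p of 0.502. Over the alternatives the adjusted p of each ran from 0.190 to 1.00. In WT animals 0 of 4 were called from 12 to 90 dpi (0.00612%), with 1 at an unadjusted p below 0.05, and 0 of 4 from 90 to 150 dpi (0.0183%), again with 1. The change of the genotype difference from 12 to 90 dpi, tested as an interaction, gave 0 of 4 called (0% of genes, 589 at an unadjusted p below 0.05, 9 called by DESeq2) with 3 members below 0.05 before adjustment. The Hbb-bs interaction was 11.45 (SE 2.56, unadjusted p = 7.5e-05, edgeR adjusted p = 0.572).

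In tumours, many genes of the table passed the test and the haemoglobin genes did not. Against WT at 150 dpi, edgeR called 0 of 4 members while 46.2% of genes were called, with 1 member at an unadjusted p below 0.05. Hbb-bs was fitted 2.84 higher (SE 1.38, adjusted p = 0.0901) and Alas2 0.94 higher (SE 0.528, adjusted p = 0.146). Without WT_21593, Alas2 passed at 1.57 (edgeR adjusted p = 0.0234). Against CKO at 90 dpi, 0 of 4 were called, with 0 at an unadjusted p below 0.05, while 49.1% of genes were called; Hbb-bs was fitted 1.37 lower and Hba-a1 1.97 lower (edgeR adjusted p = 0.306 and 0.134). For the change of the genotype difference from 90 to 150 dpi the count was again 0 of 4, with 30.0% of genes called and 1 member below 0.05 unadjusted. Without WT_21167, the library with 2 Hbb-bs counts, Hbb-bs passed there at -7.18 (edgeR adjusted p = 0.0457). DESeq2 called 0 members in each of the 9 bulk contrasts and gave Hbb-bs no adjusted p in any.

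Other globins, erythroid regulators and red cell protein genes varied widely in how often they were detected in small libraries. Of 10 other globins in the table, 7 had no count in any of 192 small libraries, among them the embryonic genes Hbb-y, Hbb-bh1 and Hba-x and the muscle gene Mb, while Cygb, a cytoglobin of many tissues, was found in 163. The erythroid transcription factors Gata1 and Klf1 were found in 2 libraries each and Gfi1b in 1. Among the red cell protein genes, Kel, Car1 and Trim10 had no count, and Slc4a1, the red cell anion exchanger, had counts in 1 library. Fth1 and Ftl1, the ferritin subunits that store iron, were in 192 of 192, with medians of 2691 and 1186 CPM. Other members of these lists were seen more often: among the regulators Tal1 and Nfe2 in 12 libraries each, Epor in 21, Zfpm1 in 40 and Lmo2 in 84, and among the red cell proteins Tspo2 in 13, Rhag in 31, Ermap in 57, Epb42 in 58, Ank1 in 77, Dmtn in 91 and Sptb in 121. Of 14 haem synthesis genes, 11 were found in at least 50% of libraries. Detection of these lists thus ran from no library to a majority of them.

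Among the contrasts, genes of these lists passed edgeR's threshold in the 3 that involve tumours. Against WT at 150 dpi, 2 of 14 haem synthesis genes passed edgeR: Slc25a39, a mitochondrial carrier, rose by 1.62 (SE 0.269) and Alas1, the housekeeping form of the enzyme that Alas2 encodes, fell by 0.88 (SE 0.173). The list's median was -0.135, beside 0.063 over all genes. Against CKO at 90 dpi, 2 of 14 rose and 3 fell, Alas1 by 1.15. Of those falls, Fech and Slc25a37 missed the threshold when scaled by RLE size factors, which raise the median of all genes from 0.121 to 0.289. Both shares are below the 46.2% and 49.1% of all genes.

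The counts that follow stand beside 24.3% of all genes higher and 21.9% lower in tumours against WT. Of 4 erythroid regulators tested, Tal1, a transcription factor of blood and vessel cells, rose by 4.02 (SE 1.04) and Epor, the erythropoietin receptor, fell by 2.45 (SE 0.528) in tumours against WT. Of 4 red cell proteins tested, 3 membrane skeleton genes fell, Dmtn by 2.51, Ank1 by 1.50 and Sptb by 1.03. Neuron markers fell in 8 of 9 cases in the same contrast, and their part in these falls was not tested. Cygb fell by 2.64 (SE 0.201). The 2 of 4 regulators called are near the 46.2% of all genes called, while 3 of 4 red cell proteins lower is above the 21.9%. With 4 genes tested in each of these lists, and Cygb alone of the other globins, nothing is read from these counts about the lists. Of 8 haem and iron clearance genes, Hmox1, the inducible haem oxygenase, rose by 2.41 (SE 0.469) and Ftl1 by 1.41 (SE 0.264), whereas Fth1 and Hmox2 fell by 0.61 and 0.66. With RLE scaling, Fth1 and Hmox2 missed the threshold (edgeR adjusted p = 0.0716 and 0.0677). Microglia markers rose in 9 of 10 cases in the same contrast. In the 8 contrasts that do not involve tumours, edgeR called 0 of 244 tests over these 5 lists, with 12 at an unadjusted p below 0.05, and DESeq2 called 6, all of them in the set contrasts.

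Markers of blood and vessel cells were set beside the globins. In bulk, the summed CPM of 10 neutrophil markers ran from 3.70 to 26.3 over animals and was 10.8 in CKO_22149, the animal with the most globin, among CKO values of 7.31 to 10.8 at 90 dpi. That animal was also the highest CKO animal at 90 dpi for endothelial markers, at 281 CPM beside 152 to 244, and for pericyte markers, at 379 beside 222 to 275. CKO_20647, the next highest of these animals in globin sum at 16.4 CPM, had the lowest endothelial sum, at 152 CPM. Its pericyte sum was 236 CPM. The part of these markers in the globin level of either animal was not tested. The sum of 8 platelet markers was 2.68 in CKO_22149 and 55.0 in CKO_20647, where the other CKO animals of that time had 1.59 to 8.40, and Gp1bb made up 53.7 of the 55.0. Endothelial markers were detected in 10 of 10 and pericyte markers in 8 of 8 in every bulk group. Within groups, the globin sum correlated over 37 animals at Spearman rho = 0.409 with endothelial and 0.392 with pericyte markers, and at -0.374 with erythroid regulators. For neutrophil, platelet and lymphocyte markers rho was 0.031, 0.208 and -0.059. The largest value among the lists was 0.559, with the other globins, and haem synthesis genes stood at 0.359. Over all 10-cell libraries, centred by set, rho was 0.223 for endothelial, 0.177 for pericyte, 0.306 for microglia, -0.116 for OPC and -0.203 for oligodendrocyte markers. Over 80 pools it was -0.161, -0.033, -0.007, -0.170 and -0.146 for the same lists, and 0.392 for astrocyte markers. For neutrophil, platelet and lymphocyte markers it was 0.010, 0.084 and 0.255 in 10-cell libraries and -0.041, 0.054 and -0.034 in pools. The values in small libraries are weak, and the part of any list in the globin level was not tested. Of 10 neutrophil markers, 6 and 4 had counts in 10-cell libraries at 12 and 90 dpi, with summed levels of up to 5366 and 55.5 CPM, and 4 and 3 had counts in pools, with up to 90.0 and 70.6 CPM.

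The centred globin sum followed depth weakly in 10-cell libraries, at rho = 0.157 with the library total, -0.027 with the spike-in share and -0.010 with the number of genes detected. In pools these were 0.054, -0.340 and 0.215. The 8 genes most like the globin sum in 10-cell libraries, among 9125 genes, were Inafm1, Rgs10, Mrpl10, Tgfbr1, Rps2, Pdgfrb, Cdk5rap3 and Bloc1s6, with Spearman rho from 0.276 to 0.313, where the 99th percentile of all genes was 0.207. In pools they were Gna11, Epn1, Tns1, S100b, Map1a, G3bp1, Wnt4 and Fam229b, at 0.421 to 0.457 among 8593 genes, and in bulk H2-D1, Cyb5r3, Flot2, Chml, Src, H2-K1, Trib1 and Fermt2, at 0.521 to 0.603 over 37 animals. No gene appears in 2 of the 3 lists, but each names only 8 of 8174 to 9125 genes, so nothing is read from that. The globins themselves, centred in the same way, reached 0.790 for Hbb-bs and Hba-a1 in 10-cell libraries.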

How the data were processed

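RNA-seq of laser-captured mouse brain cells was analysed from 1 table of RSEM expected counts that the authors deposited (240 sample columns, 0 other columns, 34623 genes and 92 spike-ins). Per the submitters' processing notes, RSEM and Bowtie2 were used with GRCm38; versions and the annotation are not given in the sources used here. Expected counts were rounded for tests. Described values are counts per 1000000 of the library's gene total, without spike-ins, on a log2(CPM + 1) scale where stated.

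Bulk libraries of 1 animal were summed, and 37 animals were fitted in 1 model with edgeR 4.0.16 (R 4.3.3): TMM factors, filterByExpr (minimum count 10, minimum total 15), quasi-likelihood tests, sex as covariate and Benjamini-Hochberg adjustment over all genes tested, called under 0.05. Small libraries were summed by set, 4 sets per kind and time. The 9 bulk contrasts and 2 set contrasts were repeated with DESeq2 1.42.0, RLE factors, no filter, no sex term, and without each replicate. The code was tested on simulated data. Descriptions used pandas 2.3.3, numpy 2.4.6 and matplotlib 3.10.9. A count of 0 is given a limit of 3 counts. Intervals are exact (Clopper-Pearson) at 95% and, like limits, cover counting error only.

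Members and gene lists were chosen with earlier results of these data known. Named genes were the members, the 2 greatest rises and falls among called genes of a list per contrast, and the 8 genes most like the globin sum per kind of library; list genes named for detection in small libraries, and Gp1bb, were chosen after their values were seen. Listed genes Hbb-b1, Hbb-b2, Ahsp and Flvcr1 were not analysed here. Some red cell genes are not reported here. Sequences come from RefSeq and GENCODE M21, and all 5 members matched.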

Additional observations from a re-analysis of the deposited data

Results flagged for a closer look

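In groups of 4 to 10, a single animal or set stood far from the others in 16 of 47 groups of member values. Many of these groups hold mostly zeros, where 1 detected animal is enough, so the 16 are not compared with a chance rate. For Hbb-bs, the highest values stood apart in WT_22281 at 12 dpi (9.39 CPM), in CKO_22149 at 90 dpi (57.1 CPM) and in the shallow library WT_21167 at 90 dpi (21.3 CPM, from 2 counts). CKO_22149 also stood apart for Hbb-bt (4.26 CPM) and Hba-a1 (12.3 CPM), but had no Hba-a2 count. Hba-a2 at 90 dpi stood apart in CKO_20647 (1.56 CPM).

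Hbb-bt stood apart in CKO_22208 (0.137 CPM), WT_22056 (0.186 CPM) and WT_22064 (1.11 CPM), and Hba-a1 in CKO_22208 (0.0360 CPM), WT_22281 (0.864 CPM), WT_22185 (0.232 CPM) and Tumor_16713 (1.92 CPM). Tumor_16713 was also the highest tumour for Alas2 (5.66 CPM). Among small libraries, set male 1 at 12 dpi was far above the other sets for Alas2 in both kinds, at a mean of 156 CPM in pools and 7.84 CPM in 10-cell libraries. Only 2 of the 14 10-cell libraries had a count there, and 1 held 94.7% of the counts. Without the highest library, left out after the values were seen, the means were 84.8 CPM in pools and 0.428 CPM in 10-cell libraries, where the other 10-cell sets of that time had 0.656, 0 and 0.393 CPM.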

How the results depend on the processing

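Of 217 alternatives for the number of members called, 213 left it as reported. The count in the 10-cell contrast was 2 with DESeq2 and 1 with each library as a replicate. Over 151 analyses that left out 1 animal or set it ranged from 0 to 1 in tumours against WT and in the genotype change from 90 to 150 dpi, and was 0 in every other contrast. With sex and number as a replicate block, the count was 0 members in both set contrasts, and that pairing changed no member's call. In the bulk contrasts no paired analysis was possible because animals carry numbers of their own.

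Of 830 alternatives for single members, 15 reversed a sign, 12 of them for Alas2, and none of these values was called. Alas2 in CKO against WT at 90 dpi turned to -0.14 with the deepest library per animal, and to -0.22, -0.09 and -0.08 without CKO_20647, CKO_22212 and WT_22185 (highest 0.21); in WT from 12 to 90 dpi it turned to -0.004 without WT_22280 (highest 0.42). Alas2 in 10-cell sets turned to -0.41 without the sex term and to -1.22, -1.01 and -2.58 without female 2 or female 1 at 12 dpi or female 1 at 90 dpi, and in pools to 1.07, 0.82 and 0.86 without male 1 at 12 dpi or male 1 or male 2 at 90 dpi. Hbb-bt turned to 2.16 (lowest -2.82) in CKO against WT at 12 dpi and to 0.013 (lowest -3.26) in WT from 12 to 90 dpi without WT_22056, and Hba-a1 in WT from 90 to 150 dpi to -0.21 without WT_21593 (highest 3.25). The cause was not tested.

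Counts over all genes moved more: DESeq2 called 18, 21, 13 and 20 genes where edgeR called 3, 8, 1 and 3 (CKO against WT at 12 and 90 dpi, WT from 12 to 90 and from 90 to 150 dpi). Fitting only the groups compared gave 92, 1 and 295 genes for CKO against WT at 12 dpi, CKO from 12 to 90 dpi and WT from 12 to 90 dpi, and taking each library as a replicate gave 251 and 239 in the set contrasts. The genotype change from 90 to 150 dpi had 2314 genes higher and 2589 lower, but 2932 and 2185 with RLE factors. In bulk, 3 counts over a group were 0.0291 to 0.0476 CPM where a globin had none.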
